A study of Mus musculus with 6 samples.

Results

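The transcripts of the wild-type (WT) virgin mammary gland were examined in the 3 WT libraries of a series of 6, chosen by the genotype in their labels. All 6 libraries came from whole glands of female FVB mice that had not been mated. The WT mice are labelled with no other allele or treatment and differed in age, with replicate 1 taken at 2 weeks, replicate 2 at 6 weeks and replicate 3 at 5 weeks. In the Hpn-/- libraries, of which replicates 1 and 2 were taken at 6 weeks and replicate 3 at 5 weeks, both alleles of the gene for the transmembrane protease hepsin were disrupted. These 3 libraries served only as the other group of the series. Each WT age is a single library, so age and library cannot be told apart. The labels do not say whether a library was made from 1 gland or from pooled glands.

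The virgin mammary gland is a thin tree of ducts that grows into a pad of white fat. The ducts have an inner layer of luminal cells, which make milk proteins after pregnancy, and an outer layer of contractile basal cells, and they are wrapped in collagen and fibroblasts. The pad also holds blood and lymph vessels, nerves and leukocytes, often with a lymph node, and it lies between the skin and the muscles of the body wall. In a whole gland, fewer cells of a type and less RNA per cell cannot be told apart.

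Counts per gene summed to 14207461, 10971661 and 11850272 in WT replicates 1, 2 and 3. Loci that collect ribosomal RNA took 83.1%, 83.6% and 82.0% of them and were left out. Gm42418, a predicted gene that lies over a repeat of ribosomal RNA, alone took 55.6% to 59.5%. The remaining 2405417, 1798932 and 2137387 counts are the total to which every share and every CPM value (counts per 1000000 kept counts) here refers. A single count was then worth 0.416 to 0.556 CPM. Of 55088 genes kept, 22748 had a count in at least 1 WT library and 14632 reached 1 CPM in all 3. Among the 8043 genes with a WT mean of at least 20 CPM, 87.6% stayed within 1.5-fold over the 3 libraries and 98.4% within 2-fold. Pairs of WT libraries differed by more than sampling noise, with chi-square values of 2.91 to 5.86 for each degree of freedom, so none was treated as a repeat of another. Hpn itself was scarce, at 4.99, 3.34 and 1.87 CPM in WT against 1.49, 1.61 and 1.63 CPM in Hpn-/- libraries, and the lowest WT value rests on 4 counts.

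Fat synthesis genes, mitochondrially encoded genes and collagens led the counts. Fasn, fatty acid synthase (chromosome 11, 120805846 to 120824547, minus strand, GRCm38), had 20132, 26903 and 32176 CPM in replicates 1, 2 and 3. It was lowest at 2 weeks and held 2.64% of WT counts on average. Scd1, which puts the first double bond into stearate (chromosome 19, 44394455 to 44407879, minus strand), had 23223, 24332 and 22599 CPM. Its libraries stayed within 1.08-fold of each other, whereas those of Fasn spanned 1.60-fold. Neither gene has an exon that overlaps another gene. Together they held 4.98% of WT counts.

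The next places by counts went to Malat1, a nuclear non-coding RNA, with 15372, 19499 and 14515 CPM, and to mt-Co1 and mt-Cytb of the respiratory chain, with means of 14327 ± 1169 and 13501 ± 1176 CPM (SD, n = 3). Col3a1 and Col1a1, fibrillar collagens of connective tissue, followed with 8096 ± 1387 and 5781 ± 901 CPM, and Rn7sk, the 7SK RNA that restrains transcription elongation, with 6026 ± 120 CPM. The rest of the 25 most abundant genes were of few kinds. Car3, Gpd1, Fabp4, Lpl and Acacb are genes of fat cells and lipid synthesis. Col1a2, Fn1, Sparc and Hspg2 encode matrix proteins, and mt-Nd1, mt-Nd2, mt-Nd4 and mt-Nd5 are subunits of respiratory complex I. Actb and Gsn (actin and an actin-severing protein), Ahnak (a giant scaffold protein) and Lrp1 (an endocytic receptor) completed them. The steadiest of these were Rn7sk and Actb, each within 1.04-fold over the 3 libraries, and the most variable was mt-Nd2, whose 3000 CPM at 2 weeks stood below the 5064 and 4965 CPM at 6 and 5 weeks.

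**Figure D1:**
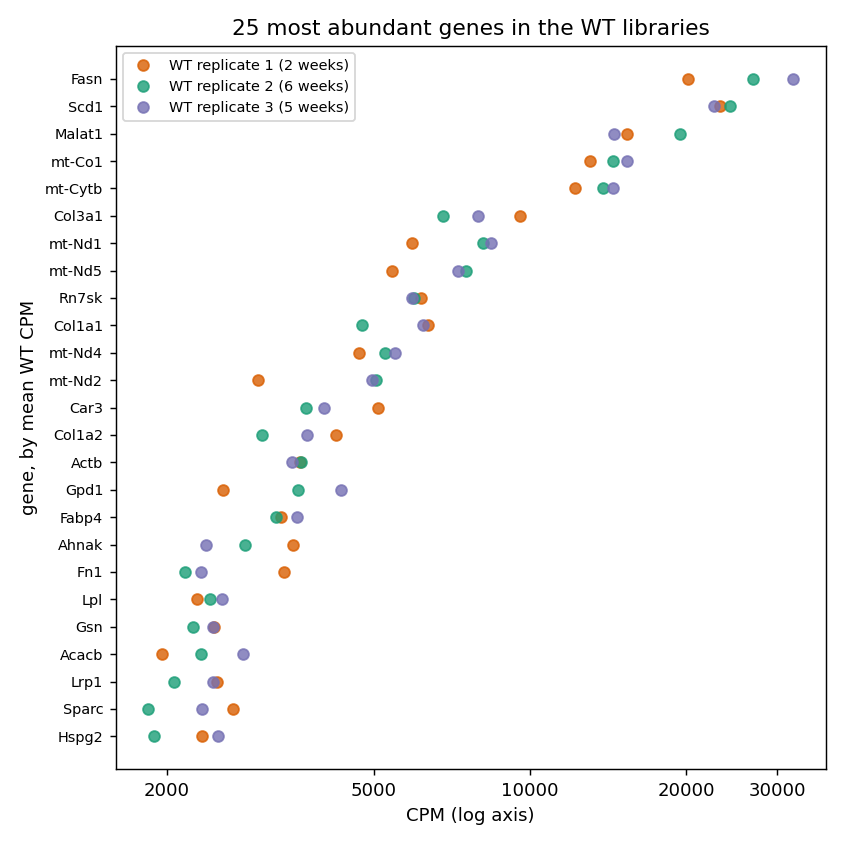
CPM (log axis) of the 25 most abundant genes in each of the 3 WT libraries, 1 point per library, with genes ordered by their mean. The points of a gene mostly lie close together, with Scd1 between 22599 and 24332 CPM and Fasn spread from 20132 CPM at 2 weeks to 32176 CPM at 5 weeks.

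Counts were concentrated in few genes. The 6 most abundant genes held 10% of the counts, 77 genes held 25%, 890 held 50% and 6426 held 90%. The 10 most abundant genes together held 12.8% ± 0.941 (SD, n = 3).

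Long transcripts collect more counts than short ones, so genes were also ordered by counts per kilobase of exon, scaled to the same total as CPM in each library. On that scale the short Rn7sk came first, with 63739 ± 2840 units (SD, n = 3). It was followed by mt-Cytb, mt-Co1 and mt-Nd1, with means of 41245, 32410 and 27293 units. Scd1 ranked above Fasn here, with 16734 ± 877 against 8409 ± 1723 units, the reverse of their order by CPM. Cfd, which encodes the fat cell protease adipsin, stood at place 29 by CPM and at place 12 per kilobase, with 7753 ± 1541 units. Ttn, whose transcript for the muscle protein titin is exceptionally long, ranked 45 by CPM and 3313 per kilobase.

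The place 9 per kilobase went to Gm24270, a predicted microRNA gene of 57 bases. It is named here because of its value. Its whole transcript is shown because it is identical, letter for letter, to that of Gm23935, a locus left out as ribosomal, and to that of the kept Gm24245 in the transcripts of GENCODE M21.
Gm23935 (chr16:11144125-11144181, plus strand, GRCm38): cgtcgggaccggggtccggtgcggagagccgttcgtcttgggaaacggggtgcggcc
Gm24270 (chr9:56223715-56223771, minus strand, GRCm38): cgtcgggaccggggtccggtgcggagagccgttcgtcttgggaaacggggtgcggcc
Mir6236, left out as well, took 5.64% to 7.0% of all counts per library. Its mature sequence in RefSeq is shown because that was the largest share of any gene annotated as a microRNA, with bases 2 to 8, the seed, in capitals.
mmu-miR-6236 (chr9:110281353-110281371, plus strand, GRCm38.p6): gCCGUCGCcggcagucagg
Gm24270 had 126, 203 and 233 CPM in WT and 298, 206 and 757 CPM in Hpn-/- replicates 1, 2 and 3. How reads of identical loci were counted is not stated in the sources used, so the level of each such copy is uncertain.

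Protein-coding genes held 95.8%, 95.2% and 95.9% of the counts in replicates 1, 2 and 3. Long intergenic RNAs held 2.28% ± 0.317 (SD, n = 3), led by Malat1, by Neat1, the scaffold RNA of nuclear paraspeckles (1694, 2237 and 2039 CPM), and by Xist, the RNA that silences an X chromosome in females (1749, 2009 and 1541 CPM). Miscellaneous RNAs held 0.612% ± 0.00916, nearly all of it Rn7sk. Antisense RNAs held 0.192% ± 0.00999, with Kcnq1ot1, an imprinted transcript, at 318, 375 and 289 CPM and Tug1, a long RNA that overlaps Morc2a, at 85.6, 87.3 and 87.0 CPM. Genes still to be experimentally supported held 0.567% ± 0.0663, processed transcripts 0.193% ± 0.00689 and processed pseudogenes 0.131% ± 0.00358. The leading processed transcripts were Cct6a, Tmem134 and the imprinted Rian, with means of 83.5, 83.0 and 74.2 CPM. Replicate 2 had the largest share of intergenic RNA and the smallest of protein-coding genes.

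Lists of genes were drawn up for fat, matrix, epithelium, immune cells and muscle, with 420 genes in all, and their counts summed in each library. Fat genes held 8.44%, 9.43% and 10.5% of counts in replicates 1, 2 and 3, matrix genes 5.56%, 4.04% and 4.69%, and immune genes 0.682%, 0.749% and 0.628%. Muscle genes held 1.05%, 0.275% and 0.159%, and epithelial genes 0.157%, 0.160% and 0.114%. The 5 classes together held 15.5% ± 0.777 (SD, n = 3). The order fat, matrix, immune, epithelial was the same in all 3 libraries, while muscle passed immune at 2 weeks only. Such an order depends on which genes, and how many, each list holds. By counting error alone these shares are precise: the 95% Wilson interval of the smallest, the epithelial share of replicate 3, ran from 0.110% to 0.119%. The spread between libraries is larger, and it mixes age with library, since each age is a single library. Per kilobase of exon, the fat share was 7.60% ± 0.533 and the matrix share 2.37% ± 0.425.

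**Figure D2:**
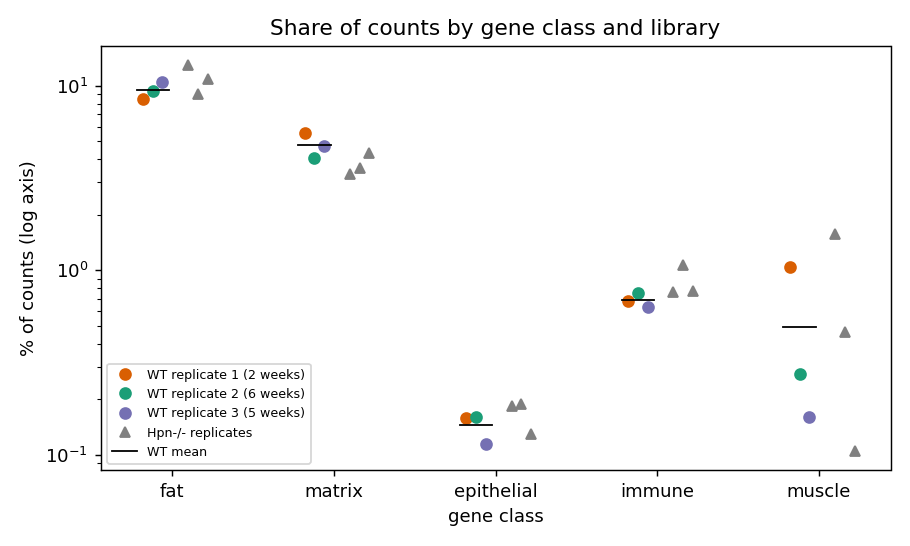
Share of counts (%, log axis) held by the fat, matrix, epithelial, immune and muscle lists in each library, with WT libraries as coloured circles, their mean as a line and Hpn-/- libraries as grey triangles. Fat lies between 8.44% and 10.5% in WT, epithelium between 0.114% and 0.160%, and muscle spreads from 0.159% to 1.05%.

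All 56 fat genes reached 1 CPM in every WT library. The 21 genes of lipid synthesis held 5.92%, 7.05% and 7.74% of counts in replicates 1, 2 and 3, most of it Fasn and Scd1. Acly, which makes the acetyl-CoA that Fasn uses, had 1228, 1985 and 2412 CPM, the widest span of the synthesis list. Gpd1, which supplies the glycerol backbone of fat, had 2566, 3576 and 4321 CPM. Both were lowest at 2 weeks, as were 16 of the 21 synthesis genes and 2246 of all 8043 genes with a mean of at least 20 CPM. Without Fasn and Scd1 the fat share was 4.10%, 4.31% and 5.02%.

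The genes of lipid storage and breakdown were steadier, at 1.46%, 1.42% and 1.62% of counts. Fabp4, a fatty acid carrier of fat cells, had 3318, 3247 and 3560 CPM, and Lpl, which releases fatty acids from lipoproteins, had 2284, 2420 and 2548 CPM. Pnpla2, the first lipase of fat breakdown, had 1858, 1685 and 2317 CPM, and Plin4, a coat protein of lipid droplets, had 1615, 1226 and 1257 CPM. Aqp7, the glycerol channel, spanned most, with 121, 97.8 and 164 CPM. Thus none of the 13 members with a mean of at least 10 CPM spanned more than 1.67-fold.

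Secreted proteins of fat cells held 0.324% ± 0.0470. Cfd had 2181, 1574 and 2379 CPM, Adipoq, the hormone adiponectin, had 568, 470 and 553 CPM, and Angptl4, an inhibitor of Lpl, had 216, 187 and 285 CPM. Lep, the satiety hormone leptin, had 203, 146 and 76.3 CPM, so its highest library was the 2 week one and its span of 2.66-fold was the widest of that list. Among genes of fat cell identity, Car3, a carbonic anhydrase, made up 80.4% of the counts, with 5096, 3710 and 4018 CPM. Pparg, the master regulator of fat cells, had 192, 122 and 133 CPM, and Cebpa, its partner, had 319, 378 and 507 CPM. Adrb3, the adrenergic receptor of fat cells, had 106, 129 and 200 CPM.

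Genes of brown and beige fat, which burn lipid for heat, varied most within the fat class. Ucp1, the uncoupling protein that makes that heat (chromosome 8, 83290352 to 83298452, plus strand, GRCm38), had 512, 1452 and 1617 CPM in replicates 1, 2 and 3. It was at least 2.83-fold lower at 2 weeks than in either older library, and it ranked 58 among all genes by CPM. Elovl3, a fatty acid elongase of brown fat, had 11.2, 47.8 and 65.5 CPM. Otop1, a proton channel, had 65.3, 129 and 138 CPM, Ppara, a receptor that drives fat oxidation, had 59.9, 87.8 and 141 CPM, and Cidea, a lipid droplet protein, had 375, 424 and 559 CPM. All 6 members with a mean of at least 20 CPM were lowest at 2 weeks, as were 2246 of all 8043 such genes. In Hpn-/- libraries Ucp1 had 767, 1192 and 1045 CPM, between the lowest and the middle WT value.

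The matrix class was led by fibrillar collagens. Interstitial collagens held 2.62%, 1.88% and 2.29% of counts, of which Col3a1 made up 35.7%. Col3a1 had 9560, 6800 and 7928 CPM, Col1a1 had 6377, 4744 and 6222 CPM, Col1a2 had 4232, 3050 and 3719 CPM, and Col6a3, of the beaded filaments around cells, had 1844, 1310 and 1572 CPM. The order of the libraries was the same for these 4 genes, with 2 weeks highest and 6 weeks lowest. An exon of Col3a1 overlaps one of a predicted gene on the same strand, so part of its counts is uncertain. Col14a1, which links fibrils, had the widest span of the collagens, with 298, 186 and 197 CPM.

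Basement membrane genes held 0.925% ± 0.129 (SD, n = 3). Hspg2, the proteoglycan perlecan, had 2340, 1886 and 2506 CPM, and Col4a1 and Col4a2, the network collagens, had 1799, 1344 and 1712 CPM and 1314, 958 and 1216 CPM. The last pair overlap each other on opposite strands. Nid1, which joins the collagen and laminin networks, had 1321, 848 and 960 CPM. Lama1, a laminin chain, had the widest span among members with a mean of at least 10 CPM and was lowest at 2 weeks, with 8.31, 17.8 and 12.2 CPM.

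Matrix glycoproteins and elastic fibre genes held 1.30%, 0.890% and 0.990%, with Fn1 (fibronectin) at 3363, 2161 and 2328 CPM, Sparc at 2680, 1839 and 2339 CPM and Fbn1 (fibrillin) at 1998, 1321 and 1467 CPM. Mfap2, a microfibril protein, had the widest span among members with a mean of at least 10 CPM, at 50.3, 23.9 and 36.0 CPM. Proteoglycans held 0.142% ± 0.0249, led by Prelp (459, 332 and 358 CPM), Dcn (432, 350 and 290 CPM) and Lum (239, 170 and 134 CPM). Acan, the aggrecan of cartilage, had no count, which allows up to 1.25 to 1.67 CPM per library. Enzymes and inhibitors of matrix held 0.370% ± 0.0461, led by the collagen chaperone Serpinh1 (769, 563 and 682 CPM), the inhibitor Timp2, the cross-linking enzyme Loxl1 and the gelatinase Mmp2. At 2 weeks 75 of the 83 matrix genes with a mean of at least 20 CPM were at their highest, as were 2961 of all 8043 such genes. The median log2 ratio of the 2 week library to the mean of the others was 0.36 for these matrix genes and 0.02 for all genes.

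The label of mammary gland was checked against epithelial genes, and those of both duct layers were present at low levels. Epithelial genes held 0.144% ± 0.0257 of counts (SD, n = 3), and 48 of the 58 reached 1 CPM in every WT library. Of the keratins of luminal cells, Krt19 had 101, 81.2 and 81.4 CPM and Krt8 had 62.4, 55.6 and 51.0 CPM. Krt18, the partner of Krt8 and named after its values were seen, had 68.2, 55.0 and 41.6 CPM. The hormone receptors Pgr, for progesterone, and Prlr, for prolactin, had 84.0, 82.3 and 69.2 CPM and 73.6, 87.8 and 55.7 CPM. Foxa1, a transcription factor of hormone-sensing luminal cells, had 9.56, 20.6 and 11.2 CPM.

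Basal cell genes held 0.0101%, 0.0114% and 0.00660%, against 0.0707%, 0.0686% and 0.0556% for the luminal list. Oxtr, the oxytocin receptor of contractile basal cells, made up 49.9% of them, with 54.5, 60.04 and 25.7 CPM. Dsc3, a desmosome protein, had 11.6, 18.9 and 10.3 CPM, and Col17a1, which anchors basal cells, had 8.31, 6.11 and 7.02 CPM. Krt14, a basal keratin, had 10, 21 and 4 counts, or 4.16, 11.7 and 1.87 CPM. Dsg3, a desmosome protein of stratified epithelium, had no count.

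Milk and secretory genes held 0.0694% ± 0.0153 and luminal genes 0.0650% ± 0.00819. Xdh, the oxidase of milk fat globules that other tissues also express, and Glycam1, a secreted mucin also known from lymph node vessels, made up 72.4% of that list. They had 308, 256 and 218 CPM and 263, 243 and 221 CPM. Without both, the epithelial share was 0.0999%, 0.110% and 0.0702%. Caseins varied much more. Csn2, the beta-casein, had 41, 109 and 2 counts, or 17.0, 60.6 and 0.936 CPM, and with 64.8-fold the widest span of all genes with a mean of at least 20 CPM. Csn1s1 had 35.3, 72.8 and 6.55 CPM and Csn3 had 45.7, 40.6 and 22.5 CPM. The caseins were highest or second highest at 6 weeks and lowest at 5 weeks. Wap, the whey acidic protein of lactation, Csn1s2b and Olah had no count in any WT library.

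**Figure D3:**
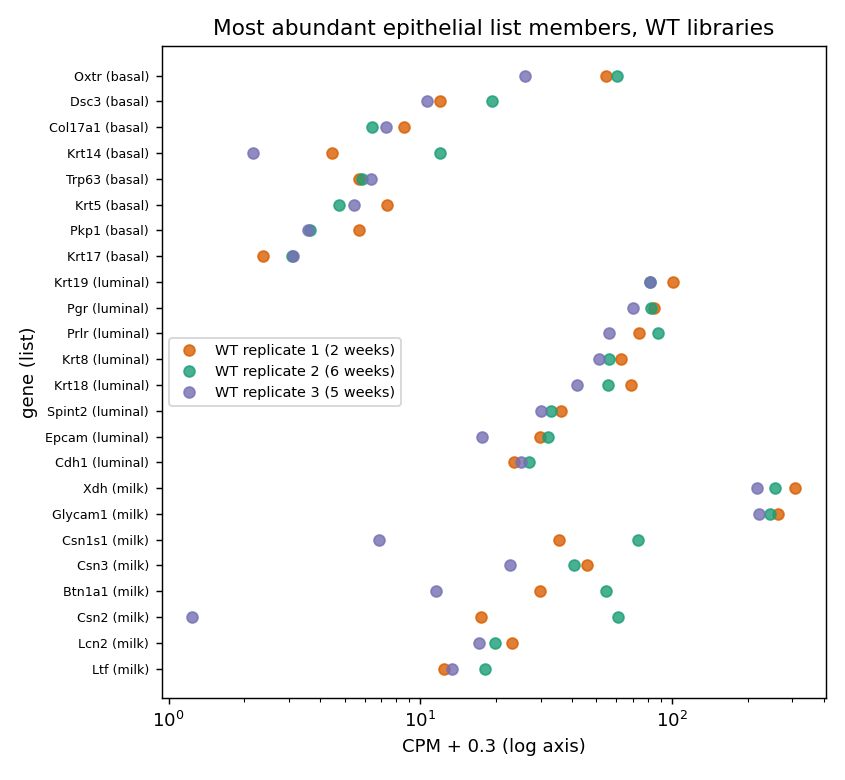
CPM + 0.3 (log axis) of the most abundant members of the luminal, basal and milk lists in the 3 WT libraries, 1 point per library. Krt19 lies between 81.2 and 101 CPM, whereas Csn2 runs from 0.936 to 60.6 CPM.

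Immune genes held 0.687% ± 0.0604 of WT counts (SD, n = 3), more than the epithelial genes in each library. The lists differ in size, with 128 immune and 58 epithelial genes, so these sums do not compare amounts of tissue. Of the 128 immune genes, 112 reached 1 CPM in each WT library. Macrophage and other myeloid genes held 0.230%, 0.192% and 0.192%. Mrc1, the mannose receptor of resident macrophages, had 377, 271 and 297 CPM, Lyz2, a lysozyme, had 245, 233 and 247 CPM, and Csf1r, the growth factor receptor of macrophages, had 205, 161 and 160 CPM. Retnla, a secreted protein of alternatively activated macrophages, had 195, 135 and 159 CPM. S100a9, a neutrophil protein, had no count in WT.

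T and NK cell genes held 0.128%, 0.177% and 0.128%, highest at 6 weeks. Cd3e, a chain of the T cell receptor complex, had 75.2, 109 and 70.2 CPM, and the T cell regulators Satb1, Tcf7 and Lef1 were likewise highest at 6 weeks, with 231, 153 and 125 CPM there. Themis, needed for T cell maturation, had 25.8, 58.9 and 30.4 CPM. B cell genes were steady, at 0.0730% ± 0.00392: Ighm, the heavy chain of IgM, had 158, 150 and 160 CPM, Ighd, that of IgD, 80.7, 88.4 and 73.0 CPM, and Cd37, a B cell surface protein, 82.3, 82.8 and 83.3 CPM. Mzb1, a plasma cell protein, and Ighg2c, an IgG heavy chain, had no count.

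Class II antigen presentation genes held 0.0868% ± 0.00694, with Cd74, the chain that guides class II molecules, at 407, 475 and 409 CPM and H2-Aa at 221, 240 and 221 CPM. Ptprc, the surface phosphatase CD45 of all leukocytes, had 353, 479 and 317 CPM. Mast cell genes were near the counting limit, with Tpsb2, a tryptase, at 4.16, 7.23 and 6.55 CPM. Markers of lymph node stroma were low but present in each library, led by the chemokines Ccl21a, at 18.3, 13.3 and 11.2 CPM, and Cxcl13, at 14.97, 11.1 and 11.7 CPM. The part of lymph node tissue in the lymphocyte counts was not tested.

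Muscle genes differed most between libraries. The skeletal lists, of the sarcomere and of calcium and energy, held 0.941%, 0.210% and 0.0910% in replicates 1, 2 and 3, a span of 10.3-fold. Without replicate 1 the mean muscle share was 0.217%, against 0.493% with it. Ttn, the spring protein of the sarcomere (chromosome 2, 76703980 to 76982547, minus strand, GRCm38), had 3500, 929 and 365 CPM. Myh4, the myosin of fast fibres, had 1636, 237 and 121 CPM, and Acta1, the skeletal actin, had 705, 124 and 51.0 CPM. Neb, the ruler of thin filaments, had 435, 103 and 48.7 CPM. In each the 2 week library stood far above the others and the 6 week library stood above the 5 week one.

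Other skeletal genes had the same order of libraries. Actn3, an actin linker of fast fibres, had 145, 11.1 and 5.15 CPM. Atp2a1, the calcium pump of muscle stores, had 501, 83.4 and 31.3 CPM, and Ckm, the muscle creatine kinase, had 385, 64.5 and 18.7 CPM. Ryr1, the calcium release channel, had 188, 40.0 and 18.7 CPM. Of the regulators that set muscle fate, Myf6, Myod1 and Pax7 had 5, 2 and 1 counts at 2 weeks and none in the older WT libraries, and Myog, Myf5 and the embryonic myosin Myh3 had none in any.

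High muscle counts were also found at an older age. Hpn-/- replicate 1, taken at 6 weeks, had a muscle share of 1.57%, above the 1.05% of the 2 week WT library, and Hpn-/- replicates 2 and 3 had 0.462% and 0.105%. Smooth muscle and myoepithelial genes varied less, at 0.105%, 0.0655% and 0.0677%, with Myh11, the smooth muscle myosin, at 136, 91.7 and 107 CPM and Synpo2, an actin-binding protein, at 161, 105 and 80.0 CPM. Tpm2, a tropomyosin that skeletal muscle also makes, had the widest span of that list, at 173, 56.1 and 42.1 CPM.

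Because skeletal genes moved together across libraries, the promoter of Acta1 is shown, as RefSeq gives it (GRCm38.p6). Capitals mark the letters TATAAA and a CArG box, the element bound by serum response factor.
Acta1 promoter (chr8:123894726-123895025, minus strand): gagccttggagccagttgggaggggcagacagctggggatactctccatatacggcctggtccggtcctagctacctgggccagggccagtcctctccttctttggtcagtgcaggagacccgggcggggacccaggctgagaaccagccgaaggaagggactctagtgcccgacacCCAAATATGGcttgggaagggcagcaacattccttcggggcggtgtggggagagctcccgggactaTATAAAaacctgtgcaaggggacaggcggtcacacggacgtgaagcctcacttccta
A CArG box on either strand was found in 5 of the 39 skeletal list genes with a promoter in the table, of 56 in all, and in 1.63% of 32851 promoters. TATAAA was found in 10 of the 39 and in 13.6% of all promoters. The letters CCAAT, also searched, were found in 16 of the 39 and in 37.4% of all promoters. Of 43 fat list genes with a promoter, 0 had a CArG box, 4 had TATAAA and 17 had CCAAT. Of 10 such genes among the 25 most abundant, 0 had a CArG box, 2 had TATAAA and 4 had CCAAT. A gene counted once if any of its promoters matched, while the share over all promoters counts each promoter, so the units differ. Such matches are letters in a window of 300 bases and describe no binding. Any link between these matches and the differences between libraries was not tested.

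Over all genes the 2 week library differed from both older ones in few places. Of the 8043 genes with a WT mean of at least 20 CPM, 27, or 0.336%, were over 2-fold above both other libraries, and 22 of these were on the skeletal muscle lists. The 10 with the largest ratio were Actn3, Pvalb, Mylpf, Myh4, Tnnt3, Tnnc2, Atp2a1, Ckm, Acta1 and Pygm, all genes of skeletal muscle. Pvalb, a calcium buffer, had 115, 14.5 and 6.55 CPM and Pygm, the muscle glycogen phosphorylase, had 121, 25.01 and 11.2 CPM. The matrix gene Efemp1 was also among the 27. With 1 library at that age no test was possible.

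Over 2-fold below both other libraries were 15 genes, or 0.186%. Elovl3 and Ucp1 were 2 of them. Ppargc1a, a coactivator of mitochondrial and heat-producing genes, had 11.2, 33.4 and 30.9 CPM in replicates 1, 2 and 3. Acot11, an acyl-CoA thioesterase of brown fat, had 158, 422 and 409 CPM, and Pank1, which starts the synthesis of coenzyme A, had 64.0, 142 and 148 CPM. Ncan, a proteoglycan known from brain, had 37.4, 102 and 86.1 CPM, and Tmem79 had 19.1, 45.0 and 49.6 CPM. Hpn-/- libraries, none of them from 2 weeks, had 324, 326 and 296 CPM of Acot11 and 30.2, 35.5 and 37.4 CPM of Ppargc1a, all above the 2 week WT value. The 15 genes were chosen for a low 2 week WT value, which by itself favours other libraries lying above it. In 14 of the 15 genes all Hpn-/- libraries lay above the 2 week WT value, and in 2 all lay above the lower of the older WT values. The exception, Fabp3, a fatty acid carrier of muscle and brown fat named here for its values, had 16.2, 33.9 and 36.5 CPM in WT and 6.33, 14.5 and 28.3 CPM in Hpn-/-. Elovl3 in Hpn-/- libraries, at 17.1, 27.9 and 21.8 CPM, lay below the 47.8 and 65.5 CPM of the older WT libraries. Of the 27 genes higher at 2 weeks, only 2 had all Hpn-/- libraries below the 2 week WT value.

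The gene with the largest ratio of the lower older library to the 2 week one was Rny3, just ahead of Elovl3. Rny3 is a small RNA of the Ro ribonucleoprotein and had 26, 83 and 109 counts, or 10.8, 46.1 and 51.0 CPM. Against the mean of the older libraries its log2 difference was -2.17 and that of Elovl3 -2.34. The whole Rny3 transcript is shown as the small RNA with the largest such ratio.
Rny3 (chr6:47781624-47781725, plus strand, GRCm38): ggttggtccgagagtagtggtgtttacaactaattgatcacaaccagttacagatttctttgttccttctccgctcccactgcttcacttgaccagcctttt
The related Rny1 was low as well at 2 weeks, with 3.33, 14.5 and 10.8 CPM, while Rn7sk, another short RNA, had 6160, 5990 and 5929 CPM.

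**Figure D4:**
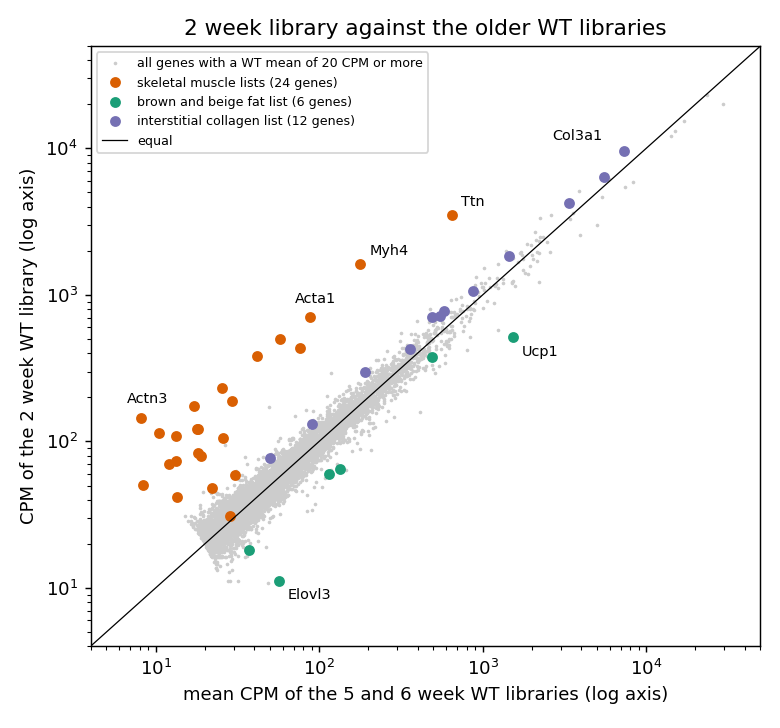
CPM of the 2 week WT library against the mean CPM of the 5 and 6 week WT libraries, both on log axes, for genes with a WT mean of at least 20 CPM, with skeletal muscle, brown and beige fat and collagen genes coloured and a line where both are equal. Skeletal muscle genes lie above the line, such as Acta1 at 705 CPM, and Ucp1, at 512 CPM, lies below it.

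Mitochondrially encoded genes held 4.49%, 5.57% and 5.71% of counts, lowest at 2 weeks, and 7 of the 13 protein genes carried nearly all of it. The other 6, mt-Co2, mt-Atp8, mt-Atp6, mt-Co3, mt-Nd3 and mt-Nd4l, were at 0 counts in every WT library except for 2 counts of mt-Co2 in replicate 3. They are named because of these values. All are subunits of respiratory complexes that share long transcripts with the counted genes. Of the 75-base windows of mt-Co2, mt-Atp6, mt-Co3, mt-Nd3 and mt-Nd4l, 97.8% to 99.9% also occur in the transcript of another gene, in most cases a pseudogene on chromosome 1, while none of mt-Atp8 does, although it overlaps mt-Atp6. By comparison mt-Cytb and mt-Nd1 share 0% of windows, mt-Co1 39.8% and mt-Nd4 61.5%. The pseudogenes were near 0 too, with at most 9 counts in a library. These zeros are not taken as a measure of the RNA of these genes. The part of reads that map to several places was not tested.

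**Figure D5:**
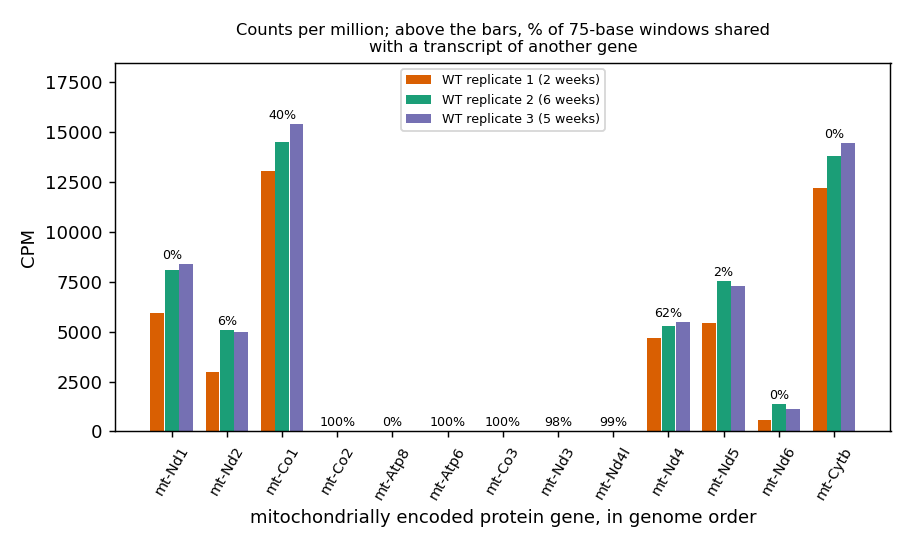
CPM of the 13 mitochondrially encoded protein genes in genome order, 1 bar per WT library, with the percentage of 75-base windows shared with another gene above the bars. Tall bars such as mt-Cytb (12198 to 14483 CPM) share 0%, and 5 of the genes at or near 0 share 97.8% to 99.9%.

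A zero in a gene with shared windows was also found for haemoglobin. Hba-a1 had 75.7, 53.4 and 75.3 CPM and Hbb-bs had 98.5, 72.3 and 97.3 CPM, but Hba-a2, 84.6% of whose windows occur in Hba-a1, had no count. The counted Hba-a1 and Hbb-bs share 67.9% and 51.5% of their windows with another gene, so their levels are uncertain too. Red cell genes together held 0.0170% ± 0.00352 (SD, n = 3).

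Other cell types of the pad were steady. Endothelial genes held 0.217% ± 0.0111, led by Ptprb, a phosphatase of vessels, at 321, 335 and 317 CPM and Cdh5, the junction protein VE-cadherin, at 334, 261 and 302 CPM. Fibroblast markers held 0.406% ± 0.0381, of which Gsn made up 58.7%. All 10 were highest at 2 weeks, as were 2961 of all 8043 genes with a mean of at least 20 CPM. Among the 10, Pdgfra, a growth factor receptor, had 307, 241 and 258 CPM. Schwann cell genes held 0.0636% ± 0.00456, with the myelin gene Pmp22 at 187, 160 and 162 CPM. Cell cycle genes held 0.0538% ± 0.00828. Mki67, a protein of dividing cells, had 108, 66.2 and 113 CPM, and it was lowest at 6 weeks. So was Top2a, at 50.3, 35.0 and 57.5 CPM. Mcm4 and Mcm2 were instead lowest at 2 weeks, with 37.0, 39.5 and 42.1 CPM and 36.6, 36.7 and 43.5 CPM. Skin genes held 0.00158% ± 0.000815, and the epidermal genes Lor, Ivl and Flg had no count. Tchh and Krt71, genes of hair follicles, had 14 and 7 counts in replicate 3, against 1 and 0 in each other WT library.

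The class shares were compared with those of the 3 Hpn-/- libraries to see where WT stood in the series, with a two-sided exact permutation test whose smallest p with 3 against 3 is 0.1. The fat share was 9.46% ± 1.03 in WT and 10.9% ± 1.98 in Hpn-/- (SD, n = 3 each, exact p = 0.4). The matrix share was 4.76% ± 0.766 against 3.76% ± 0.530 (exact p = 0.2), the epithelial share 0.144% ± 0.0257 against 0.167% ± 0.0328 (exact p = 0.4) and the muscle share 0.493% ± 0.482 against 0.712% ± 0.763 (exact p = 0.7). The groups overlapped in these 4 classes. The immune share was 0.687% ± 0.0604 in WT, and the 0.763%, 1.06% and 0.768% of the Hpn-/- libraries all lay above the highest WT value of 0.749%. Its exact p of 0.1 is the smallest possible and became 0.5 after Benjamini-Hochberg adjustment over the 5 classes. The difference of 0.178 percentage points was 0.0789 without Hpn-/- replicate 2.

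Gene by gene, edgeR's quasi-likelihood test over 12734 genes called 2, or 0.0157%, at an adjusted p under 0.05, Errfi1 (adjusted p = 0.0219) and Sik1 (adjusted p = 0.0257), both higher in Hpn-/-. Neither belongs to the 5 classes, and the count went from 0 to 218 as single libraries were left out, with 218 reached without Hpn-/- replicate 3. None of the 25 most abundant WT genes and no member of the 5 classes passed. At an unadjusted p under 0.05 there were 871 genes, and DESeq2 called 10. With age as a covariate edgeR called 0 genes at an adjusted p under 0.05 and 490 at an unadjusted p under 0.05. On the log2 scale Fasn differed by 0.27 (SE 0.24, adjusted p = 0.905) and Col3a1 by -0.51 (SE 0.20, adjusted p = 0.638), Hpn-/- minus WT.

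Among tested members, 31 of 107 immune genes had all Hpn-/- libraries above all WT libraries, where 4.65% of all tested genes did, and 3 had all below. The median log2 fold change was 0.40 for these immune genes and -0.00 for all genes. It was 0.42 for T and NK cell genes and 0.41 for B cell genes, but 0.02 for macrophage and other myeloid genes. Of the 34 tested myeloid genes, 7 had all Hpn-/- libraries above and 3 had all below. In 6 of the 7 class II genes all Hpn-/- libraries lay above, with Cd74 at 407, 475 and 409 CPM in WT and 525, 722 and 507 CPM in Hpn-/-, and H2-Aa at 221, 240 and 221 against 329, 402 and 250.7 CPM. In the matrix class 13 of 98 had all Hpn-/- libraries below, where 6.17% of all tested genes did, and 3 had all above, with a median log2 fold change of -0.25. Without the 2 week WT library the immune share differed by 0.175 percentage points, against 0.178 with it, and the matrix share by -0.608 against -1.01.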

How the data were processed

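Per the labels' protocols, ribosomal RNA was removed from total RNA of whole glands before strand-marking libraries were made and read from 1 end over 75 bases. The authors deposited raw counts of reads per gene. Per the submitters' processing notes, the tools included STAR 2.6.0c, featureCounts, Trimmomatic and bcl2fastq, with the build GRCm38. Whether counting used strand, and how it handled reads with several places in the genome, is not stated in the sources used, so genes that overlap another or have near-identical copies are uncertain.

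All 55450 identifiers matched GENCODE M21, which gave symbols, biotypes, coordinates and the union exon length behind counts per kilobase. The 6 ribosomal loci named by rule and all genes of the rRNA and Mt_rRNA biotypes, 362 in all, were left out, and CPM was computed on the rest with pandas 2.3.3 in Python 3.11.15. Shares carry 95% Wilson intervals (statsmodels 0.14.6), which cover counting error only, as does the upper limit of 3 counts given for a count of 0. Depth was 1798932 to 2405417 kept counts per WT library. Replicates are separate samples by their titles, and the labels do not say that they are separate animals, so a p-value reflects the spread of these samples, which may be technical.

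Class shares were compared between groups by exact permutation (SciPy 1.17.1). Genes were tested in R 4.3.3 with edgeR 4.0.16 (filterByExpr with a minimum count of 10, TMM factors of 0.970 to 1.03, robust quasi-likelihood fit, Benjamini-Hochberg adjustment) on the kept loci, and the script was tested on simulated data. DESeq2 1.42.0, other filters, scalings, denominators and omissions of single libraries were alternatives.

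The lists, 511 genes of which 510 were found, were chosen with earlier results of these data known, as was the choice of the WT libraries. Named genes were taken from the 25 most abundant, the 15 with most counts per kilobase, the top 3 of each larger biotype, the top 4 of each list and its most variable member, the 10 with the largest ratio of the 2 week library in each direction, and markers at 0. Predicted genes were counted, not named, outside the top 25, save where stated, and genes named after their values were seen are marked so. Short RNA sequences come from the transcripts of GENCODE M21, the promoter and the mature microRNA from RefSeq.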

Additional observations from a re-analysis of the deposited data

How the results depend on the processing

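The WT class shares kept their order of fat, matrix, immune and epithelial under each alternative, with muscle left aside. With all counts as the denominator, ribosomal loci included, the fat share was 1.62%, matrix 0.817%, immune 0.117%, epithelial 0.0245%, protein-coding 16.4% and that of the 10 most abundant genes 2.20%. Per kilobase of exon, fat was 7.60%, matrix 2.37%, immune 0.956%, protein-coding 85.3% and the top 10 24.2%. Without genes whose exons overlap another gene, fat was 13.5%, immune 0.777%, epithelial 0.203%, protein-coding 97.1% and the top 10 15.2%. Without its most abundant member, fat was 6.82%, matrix 3.95% and epithelial 0.118%. The top 10 held 9.40% of nuclear protein-coding counts and 10.7% without mitochondrially encoded genes. A protein-coding share of nuclear protein-coding counts is 100% by construction and was not computed. The other WT shares moved by less than 1 SD. For muscle, with an SD of 0.482 around a mean of 0.493%, that spans 0.0836% with all counts as the denominator, 0.389% per kilobase, 0.323% without overlapping genes, 0.333% without its top member and 0.217% to 0.660% with single libraries left out.

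Between the groups, the muscle difference of 0.219 percentage points ranged from -0.210, without Hpn-/- replicate 1, to 0.522 with single libraries left out, and the other class differences kept their direction but not their size. Fat, at 1.48, ranged from 0.472 without Hpn-/- replicate 1 to 2.45 without Hpn-/- replicate 2. Epithelial, at 0.0231, went to 0.00825 without WT replicate 3, matrix, at -1.01, went to -0.608 without WT replicate 1, and immune, at 0.178, to 0.0789 without Hpn-/- replicate 2. The number of genes called was 95 without a filter on low counts, 0 with age as a covariate, 10 with DESeq2 and from 0 to 218 with single libraries left out. With the replicate number as a block it was 9, but whether the numbers pair the samples is not settled. Deviations of same-numbered libraries correlated at 0.177, 0.0725 and 0.374, each the highest value for its Hpn-/- library. Those of different numbers ranged from -0.301 to 0.129. WT replicate 2 correlated more with Hpn-/- replicate 1, at 0.129, than with its own number. With the replicate block the class differences kept their direction, and the exact sign-flip p was 0.25 to 0.75, where 0.25 is the smallest that 3 pairs allow.

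Depth limits the scarce classes most, since basal keratins and caseins rest on few counts.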

Other observations

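Genes of the translation machinery and of chromatin, which stand on none of the 5 class lists, were also counted by their symbols, and these groups were chosen after values were seen. The 83 genes for proteins of the cytosolic ribosome held 1.16%, 1.03% and 1.04% of counts in WT replicates 1, 2 and 3, and 49 of the 73 with a mean of at least 20 CPM were highest at 2 weeks, against 2961 of all 8043 such genes. The 67 genes of the histone clusters, whose RNAs mostly lack a poly(A) tail and are made in dividing cells, held 0.0779%, 0.0657% and 0.0916%, and 46 of them reached 1 CPM in every WT library. Their share, like that of the cell cycle list, was lowest at 6 weeks. Small nuclear and nucleolar RNA genes held 0.0704%, 0.0792% and 0.0786%, and 2620 of these 2941 genes had no count in WT. The shares of the Hpn-/- libraries were 1.07%, 1.26% and 1.16% for ribosomal proteins and 0.0516%, 0.0669% and 0.0774% for histones, and the groups overlapped for both. Small nuclear and nucleolar RNA genes held 0.105%, 0.114% and 0.0875% in Hpn-/-, each above every WT share, and this difference was not tested.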
